A study of Mus musculus with 6 samples.

Results

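The genes described here encode the machinery that tethers a vesicle to its target membrane and fuses it there. The set holds 34 genes that were given by symbol: 8 R-SNARE genes (Vamp1, Vamp2, Vamp3, Vamp4, Vamp5, Vamp7, Vamp8 and Ykt6), 3 SNAP genes (Snap23, Snap25 and Snap29), 10 syntaxin genes, the Sec1/Munc18 gene Stxbp3, 4 genes of SNARE disassembly (Nsf, Napa, Napb and Napg) and the 8 exocyst subunit genes. All 34 matched 1 gene each among 49315 gene IDs in the count files, and all 34 were among the 23989 genes that passed the filter on low counts. They were measured in endothelial cells of 3 tumours that bear the labels MET-106, MET-107 or MET-108. These were grown for 2 weeks from 4T1 cells, a mouse mammary carcinoma line, placed in the inguinal fat pad of Balb/c females that were 8 weeks old at implantation and 10 weeks old at harvest. At 1 hour before the tumours were taken, 1E12 Cy5-labelled gold nanoparticles of 50 nm with 5K mPEG were given by tail vein. Cells were depleted of CD45+ cells, enriched for CD31+ cells and sorted by flow cytometry into a nanoparticle-positive (NP+) and a nanoparticle-negative (NP-) fraction, which gave 3 NP+ and 3 NP- libraries, 1 of each per tumour. Both fractions thus came from injected animals, and the NP- cells were no uninjected control.

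SNARE proteins sit on vesicles and on target membranes and zip together into a bundle of coiled helices that pulls the membranes into contact. R-SNAREs, mostly on the vesicle, pair with syntaxins and SNAP proteins on the target, Sec1/Munc18 proteins guide the pairing, and NSF with its adaptors takes spent bundles apart by hydrolysing ATP. The exocyst is a tether that holds secretory and recycling vesicles at the plasma membrane before they fuse. In endothelial cells this machinery serves the release of Weibel-Palade bodies, the recycling of receptors, the sorting of endocytosed cargo and the passage of vesicles across the cell.

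Total gene counts ran from 41830256 to 58089600 in the NP+ libraries and from 20856410 to 44694267 in the NP- libraries, and reads carried no molecular identifiers. All 10 endothelial markers were detected in every library, and their summed level was 10632 to 12451 CPM (read counts scaled to a common library size by the TMM method) in NP+ cells and 7134 to 9984 CPM in NP- cells. Markers of several other cell types stood lower in NP+ cells. At an unadjusted p under 0.05 in edgeR's quasi-likelihood test this held for 7 of 7 fibroblast markers (summed 8.15 to 21.6 CPM in NP+ cells against 48.9 to 1814 CPM in NP- cells), 6 of 7 mural cell markers (45.1 to 82.0 CPM against 100 to 742 CPM), 6 of 7 tested epithelial markers (9.39 to 15.2 CPM against 17.8 to 601 CPM) and 8 of 10 leukocyte markers (22.1 to 30.3 CPM against 46.9 to 165 CPM). With the tumour as a block these counts were 7, 6, 2 and 7. Of all tested genes 15.4% were lower at that threshold, and 14.6% with the block. Of the 10 endothelial markers 3 were higher and 0 lower at it (1 and 0 with the block), beside 8.01% of all tested genes higher (7.85% with the block). Lymphatic endothelial markers were lower for 3 of 6 genes, although their sum in MET-106 was 291 CPM in NP+ cells and 170 CPM in NP- cells (over all tumours 291 to 341 CPM against 170 to 990 CPM). Adipocyte markers were lower for 1 of 4 tested genes, erythroid markers for 1 of 5 and platelet markers for 0 of 5, of which 2 had a positive log2 fold change. No fibroblast, mural or leukocyte marker was at 0 in any library, and of the 8 epithelial markers 1, Krt5, was at 0 in the NP+ libraries of MET-106 and MET-107. The highest fibroblast, mural and epithelial sums were all in the NP- library of MET-106. Their part in the results below was not tested, and in bulk RNA fewer cells of a type and less RNA per cell cannot be told apart. The NP- libraries of MET-107 and MET-108 stood apart: across tested genes, log2 CPM in that of MET-107 correlated with the other libraries at 0.83 to 0.88 and in that of MET-108 at 0.83 to 0.85, against 0.94 to 0.97 among the remaining 4 libraries. The NP- library of MET-106 held 3.90% mitochondrial reads, against 1.0% to 1.5% in the others. P values of the fit without a block rest on the spread among the 3 libraries of each fraction and leave the pairing by tumour unused. With the tumour as a block, they rest on the spread that remains after differences between tumours are fitted.

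Most of the 34 genes stood somewhat higher in NP+ cells under TMM scaling (26 of 34, against 16 under upper-quartile and total-count scaling), by about as much as other expressed genes did. In edgeR's fit under TMM scaling with no tumour block, 3 of them (Stx6, Exoc5 and Stx2) stood higher by more than 1 log2 unit. With the block Vamp2 passed 1 as well (1.24), and Stx2 was at 0.83 under upper-quartile and 0.76 under total-count scaling. None of the 34 genes passed a false discovery rate of 0.05 in edgeR's quasi-likelihood test, in which 0.0125% of all tested genes were called higher and 0.0167% lower. At an unadjusted p under 0.05, 5 of 34 genes were higher in NP+ cells (Stx6, Stx2, Exoc5, Stx7 and Napa) and 0 were lower. That is 14.7% of the set, beside 8.01% of all tested genes and 17.8% of the 10671 genes with at least 5 CPM in 3 libraries. The 5 became 11 without the NP- library of MET-108, 3 without that of MET-107 and 9 without that of MET-106. In these fits 10%, 6.13% and 12.3% of all tested genes were higher. Of all tested genes 15.4% were lower at that threshold, and of those with at least 5 CPM 4.38%. DESeq2 called Stx6, Exoc5 and Stx2 higher at an adjusted p under 0.05 (4.03% of all tested genes) and 0 lower (9.86%). Limma-voom called 0 higher (0.05%) and 0 lower (0.025%) at an adjusted p under 0.05, and 5 higher (9.26%) and 0 lower (7.45%) at an unadjusted p under 0.05. The authors' deposited table lists 3 genes of the set as higher (3.71% of its genes) and 0 as lower (9.45%). With the tumour as a replicate block in edgeR, 4 genes were higher (7.85%) and 1, Snap25, was lower (14.6%) at an unadjusted p under 0.05, with 0 at an adjusted p under 0.05.

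The median log2 fold change (NP+ over NP-) was 0.22 over the 34 genes, -0.29 over all tested genes and 0.25 over the genes with at least 5 CPM in 3 libraries. Values were above 0 for 26 genes and below 0 for 8 genes. These signs hinge on the scaling: under upper-quartile scaling the median of all tested genes shifted to -0.53 and that of the set to -0.02, and under total-count scaling to -0.59 and -0.07, with 16 of 34 genes above 0 in both. Under each of these the 10 genes that turned below 0 were Vamp5, Vamp8, Snap29, Stx4a, Stx12, Stx16, Stxbp3, Exoc2, Exoc3 and Exoc4. Under TMM scaling 31 of 34 genes lay above the median of all tested genes. When the genes under 5 CPM in most libraries were left out of the fit, 16 of 33 genes stood above the median of all, which was -0.02. At an unadjusted p under 0.05, 3 were higher there (6.44% of all genes in that fit) and 1, Vamp1, was lower (8.75%).

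**Figure D1:**
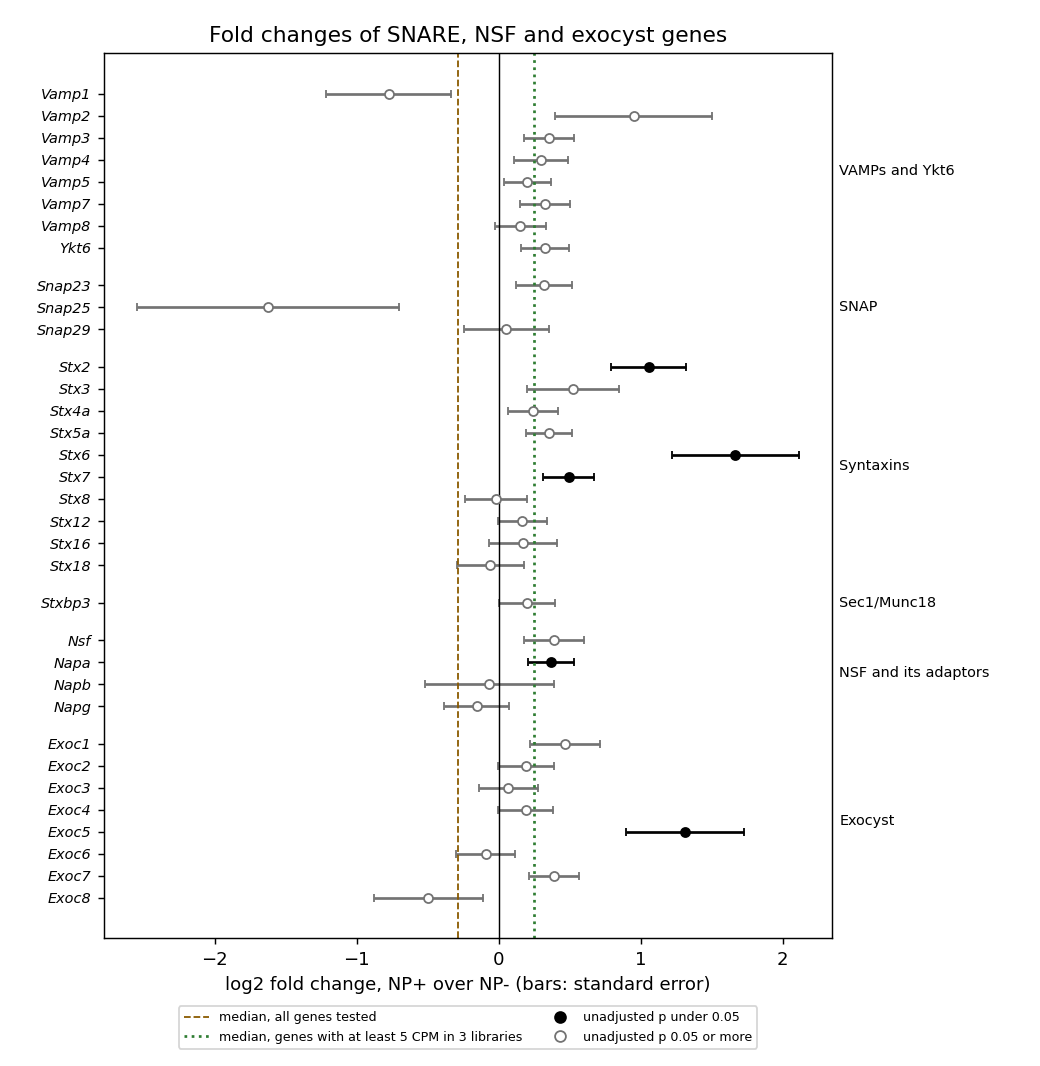
Log2 fold changes (NP+ over NP-) of the 34 genes from edgeR's quasi-likelihood fit, with bars for 1 standard error; filled points mark an unadjusted p under 0.05. Most points lie near 0.25, the median of the genes with at least 5 CPM in 3 libraries (dotted line), and to the right of the median of all tested genes at -0.29 (dashed line), while Stx6, Exoc5 and Stx2 lie furthest to the right.

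Within tumours, 21 of 34 genes (61.8%) were higher in the NP+ than in the NP- library of the same tumour in 3 of 3 tumours, beside 20% of all tested genes and 40.4% of the genes with at least 5 CPM in 3 libraries. Snap25 alone was lower in 3 of 3 tumours, beside 30.2% of all tested genes and 8.64% of those with at least 5 CPM. The NP+ and NP- libraries did not overlap for 13 genes (38.2%), all higher in NP+ cells, beside 13.3% of all tested genes and 27.8% of the genes with at least 5 CPM. No gene of the set was lower without overlap, beside 15.6% and 5.23%. Under total-count scaling 4 genes were higher and 9 lower in 3 of 3 tumours, and under upper-quartile scaling 6 were higher and 5 lower. Replicates lay closer together in NP+ cells, where the median coefficient of variation over the set was 10.5%, than in NP- cells, where it was 20.4%; it was 25.1% in NP+ cells and 50.8% in NP- cells over all tested genes, and 11.8% and 25.9% over those with at least 5 CPM, close to the set.

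**Figure D2:**
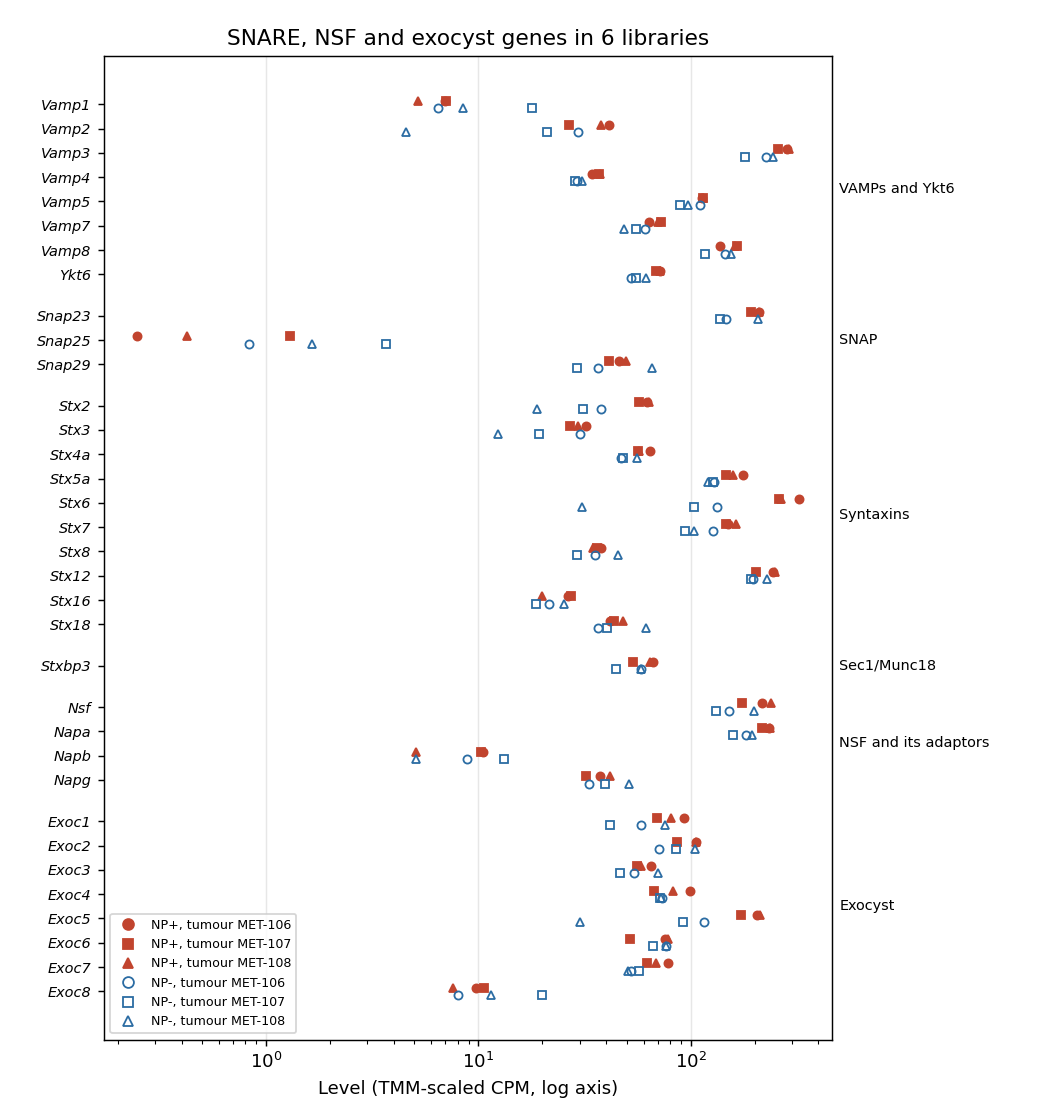
TMM-scaled CPM (log axis) of each of the 34 genes in the 6 libraries, with filled symbols for NP+, open symbols for NP- and a shape per tumour. For Stx6, Exoc5 and Vamp2 the open triangle (NP-, MET-108) lies far to the left of the other libraries, and Snap25 is the lowest gene in every library.

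The largest positive difference was in Stx6 (ENSMUSG00000026470, GRCm38 chromosome 1, 155158715 to 155208256, plus strand), which encodes a syntaxin of the trans-Golgi network and endosomes. Its level was 324, 260 and 267 CPM across the NP+ libraries of MET-106, MET-107 and MET-108, against 133, 104 and 30.6 CPM in the NP- libraries of the same tumours. All NP+ values lay above all NP- values, and the NP- library of MET-108 was far below the other NP- libraries. Its log2 fold change was 1.67 ± 0.45 (errors of log2 fold changes are SE, and those of levels and shares are SD over 3 libraries), with an unadjusted p of 0.00498 and an adjusted p of 0.127 in edgeR's quasi-likelihood test. It was 1.28 without the NP- library of MET-108, where the adjusted p was 0.0389, and 2.14 without the NP- library of MET-106, where the adjusted p was 0.0422. With the tumour in the model it was 1.89 ± 0.38 (adjusted p 0.0977, edgeR).

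Exoc5 (ENSMUSG00000061244, chromosome 14, 49012146 to 49066653, minus strand) encodes the exocyst subunit also known as Sec10. It was at 206, 172 and 213 CPM across the NP+ libraries of MET-106, MET-107 and MET-108, against 116, 91.6 and 30.1 CPM in their NP- libraries. The groups did not overlap, and again the NP- library of MET-108 was the lowest. The log2 fold change was 1.31 ± 0.41 (unadjusted p 0.0118, adjusted p 0.145, edgeR), and 0.95 without the NP- library of MET-108 (adjusted p 0.0599). It was 1.76 without the NP- library of MET-106 (adjusted p 0.0489, edgeR). Of its 9932 bp of gene length, 1.60% overlaps exons of Ap5m1 on the opposite strand.

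Stx2 (ENSMUSG00000029428, chromosome 5, 128984557 to 129008574, minus strand) encodes a plasma membrane syntaxin that is also called epimorphin. It was at 62.2, 57.1 and 63.6 CPM in the NP+ libraries and at 38.0, 31.1 and 18.9 CPM in the NP- libraries. NP+ libraries differed little from each other, and no NP- library reached them. The log2 fold change was 1.06 ± 0.26 (unadjusted p 0.00334, adjusted p 0.122, edgeR). It was 0.84 without the NP- library of MET-108 (adjusted p 0.0728) and 1.35 without that of MET-106 (adjusted p 0.0311). With the tumour in the model it was 1.11 ± 0.28 (adjusted p 0.110, edgeR). Under upper-quartile scaling it was 0.83, under total-count scaling 0.76, and with genes under 5 CPM left out of the fit 0.79.

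Since these 3 genes had the largest positive differences of the set in edgeR's fit without a block, the 250 bases before a RefSeq transcription start of each are shown. Starts are from RefSeq on GRCm38.p6, and the first listed was used (Stx2 has 2). Each window runs 5′ to 3′ on the strand of the gene, at chr1:155158453-155158702 (plus strand) for Stx6, chr14:49066668-49066917 (minus strand) for Exoc5 and chr5:129008573-129008822 (minus strand) for Stx2. Capitals mark every match, on either strand, to one of 5 short motifs that are spelled out after the sequences; none of the matches overlap.
Stx6: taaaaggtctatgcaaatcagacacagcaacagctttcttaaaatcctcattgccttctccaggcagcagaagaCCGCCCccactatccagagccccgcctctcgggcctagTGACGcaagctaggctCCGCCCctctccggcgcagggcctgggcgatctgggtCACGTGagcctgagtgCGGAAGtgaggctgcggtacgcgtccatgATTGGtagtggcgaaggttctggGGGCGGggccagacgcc
Exoc5: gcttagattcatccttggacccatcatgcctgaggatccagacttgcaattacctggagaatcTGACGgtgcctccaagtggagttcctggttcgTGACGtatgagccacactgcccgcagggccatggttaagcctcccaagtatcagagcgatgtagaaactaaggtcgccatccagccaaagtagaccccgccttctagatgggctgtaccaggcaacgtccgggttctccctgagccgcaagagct
Stx2: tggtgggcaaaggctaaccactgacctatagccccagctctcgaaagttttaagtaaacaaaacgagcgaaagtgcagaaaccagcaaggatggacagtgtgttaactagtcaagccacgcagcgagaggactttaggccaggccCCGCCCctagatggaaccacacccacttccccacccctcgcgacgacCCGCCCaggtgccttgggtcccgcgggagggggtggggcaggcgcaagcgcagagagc

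The E-box was searched only in its form CACGTG. This form had 1 match in the Stx6 window, and 6.05% of 27025 promoter windows of this length in the RefSeq table held it. The CCAAT box, named after its letters, had 1 match there and was in 34.5% of windows. The GC box, searched as GGGCGG, had 3 matches in the Stx6 window and 2 in the Stx2 window, against 32.9% of windows with any match. The ETS core, searched as CGGAAG, had 1 match in the Stx6 window (13.8% of windows). The core of the cyclic AMP response element, searched as TGACG, had 1 match in the Stx6 window and 2 in the Exoc5 window (17.9% of windows). No sequence searched was thus present in all 3 windows shown, and other forms of the E-box were not searched. Of the 29 genes of the set that had a window, 4 held the E-box, 12 the CCAAT box, 16 the GC box, 10 the ETS core and 9 the cyclic AMP core. These matches describe letters only, and the genes shown and the motifs were chosen after the values were seen.

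**Figure D3:**
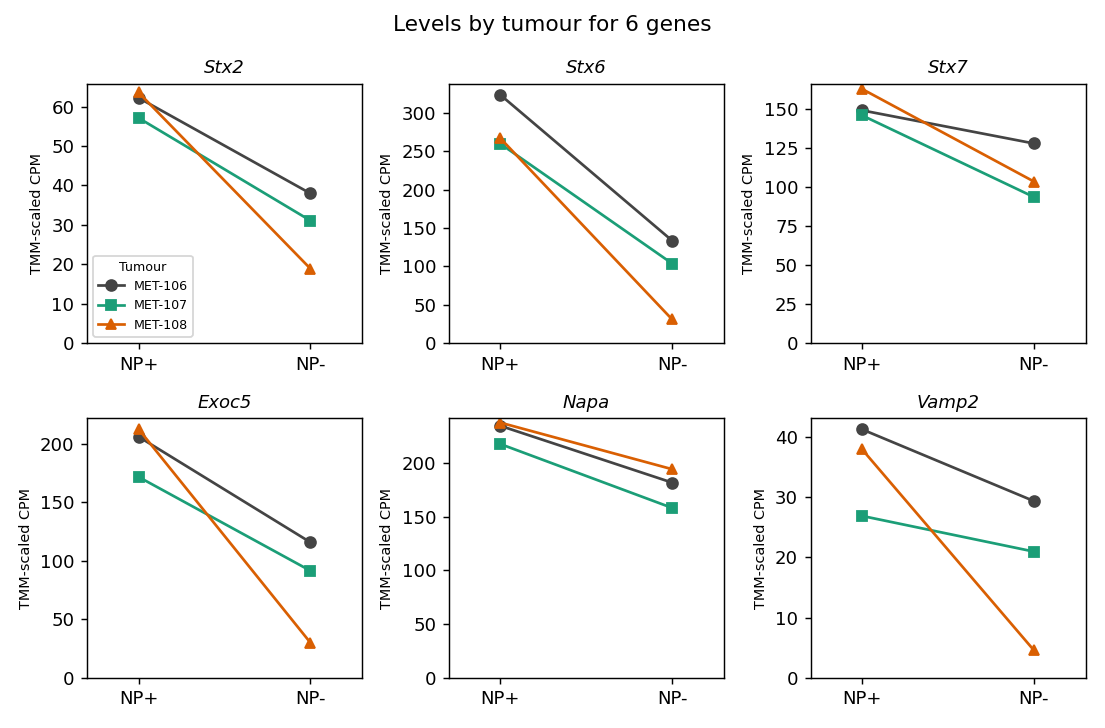
TMM-scaled CPM of 6 genes in the NP+ (left) and NP- (right) library of each tumour, joined by a line per tumour, on axes that start at 0. All lines slope down to NP-, and for Stx2, Stx6, Exoc5 and Vamp2 the line of MET-108 is the steepest, ending at 30.6 CPM for Stx6 and 30.1 CPM for Exoc5.

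The steep difference in MET-108 was shared by a few genes of the set. Within that tumour the log2 ratio of NP+ over NP- was 3.12 for Stx6, 3.06 for Vamp2, 2.82 for Exoc5, 1.75 for Stx2 and 1.26 for Stx3, and these were the 5 genes with a ratio above 1. In MET-106 and in MET-107 only Stx6 passed 1, at 1.28 and 1.33. Among the genes with at least 5 CPM in 3 libraries, 6.83% passed 1 in MET-106, 9.72% in MET-107 and 17.4% in MET-108, so the share of the set in MET-108 was near that background. The median ratio of the set was 0.31 in MET-106, 0.34 in MET-107 and 0.13 in MET-108, beside 0.25, 0.26 and 0.27 for the genes with at least 5 CPM. The lowest of the 6 libraries was an NP- library for 27 of 34 genes, that of MET-107 for 15, that of MET-108 for 8 and that of MET-106 for 4. Among the genes with at least 5 CPM in 3 libraries these were the lowest for 30.0%, 33.0% and 20.4%, so an NP- library was the lowest for most of those genes too. The NP- library of MET-107 was the most frequent lowest in the set, and that of MET-108 among those genes.

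Among the R-SNARE genes, 7 of 8 had a positive log2 fold change (5 under upper-quartile and total-count scaling, with Vamp5 and Vamp8 turned) and 0 reached an unadjusted p under 0.05. The highest level per gene length belonged to Vamp3 (cellubrevin, an R-SNARE of recycling endosomes), with 96.4 ± 6.0 CPM per kb in NP+ cells and 75.3 ± 11.6 CPM per kb in NP- cells (SD, n = 3 each). Its CPM were 285, 259 and 292 in the NP+ libraries and 227, 180 and 245 in the NP- libraries, which did not overlap (log2 fold change 0.36 ± 0.18, adjusted p 0.254, edgeR). Vamp3 made up 35.1% of the summed R-SNARE level per kb in NP+ cells and 33.3% in NP- cells, and Vamp8, an R-SNARE of late endosomes and secretory granules, made up 24.4% and 26.7%.

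The next R-SNARE genes showed smaller gaps between the groups. Vamp5 (myobrevin, first described in muscle) was at 113, 114 and 115 CPM in NP+ cells against 111, 89.0 and 96.8 CPM in NP- cells. Its groups did not overlap, but the NP- library of MET-106 lay just below the NP+ values (log2 fold change 0.20 ± 0.16). Vamp7, an R-SNARE of late endosomes and lysosomes, was at 64.0, 72.5 and 70.0 CPM against 61.3, 55.0 and 48.3 CPM. NP+ values were again all higher (0.33 ± 0.18). Its locus lies on an unplaced scaffold of GRCm38.

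Vamp4, the R-SNARE of the trans-Golgi network, was at 34.3, 37.0 and 37.6 CPM in NP+ cells against 29.3, 28.5 and 30.8 CPM in NP- cells. Ykt6, an R-SNARE held on membranes by lipid anchors rather than a transmembrane helix, was at 72.1, 68.7 and 72.0 CPM against 52.6, 55.1 and 62.0 CPM. Both had NP+ libraries above every NP- library, with log2 fold changes of 0.30 ± 0.19 for Vamp4 and 0.33 ± 0.17 for Ykt6. Vamp8 overlapped between the groups (0.15 ± 0.18).

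The synaptobrevins Vamp1 and Vamp2, best known from synaptic vesicles, differed from each other. Vamp2 was at 41.3, 26.9 and 37.9 CPM in NP+ cells against 29.3, 21.0 and 4.54 CPM in NP- cells. The groups overlapped, each NP+ library stood above the NP- library of its tumour, and the NP- library of MET-108 held 135 reads of the gene where the other libraries held 504 to 1512. Its log2 fold change was 0.95 ± 0.55 (adjusted p 0.31, edgeR), and 0.51 without the NP- library of MET-108. With the tumour in the model it was 1.24 ± 0.54. Vamp1 was low in all libraries, with 6.40 ± 1.04 CPM in NP+ cells and 11.0 ± 6.1 CPM in NP- cells (SD, n = 3 each), and its value in the NP- library of MET-107, 18.0 CPM, was the highest. The Vamp1 log2 fold change was -0.77 ± 0.44 (unadjusted p 0.114, edgeR), and -0.21 without that library. It was -1.09 under total-count scaling (unadjusted p 0.0447, edgeR) and -1.06 with genes under 5 CPM left out (p 0.0480). Without the NP- library of MET-106 it was -0.99 (p 0.0388).

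Snap23, the widely expressed SNAP protein of the plasma membrane, carried 78.1% of the SNAP level per kb in NP+ cells and 75.1% in NP- cells. It was at 210, 193 and 209 CPM in NP+ cells against 146, 137 and 208 CPM in NP- cells. The groups overlapped, and in MET-108 the fractions were nearly equal (log2 fold change 0.32 ± 0.20, adjusted p 0.34, edgeR). Snap29, a SNAP protein of intracellular membranes and autophagosomes, averaged 45.6 ± 4.3 CPM in NP+ cells and 43.9 ± 19.3 CPM in NP- cells, with its highest value in the NP- library of MET-108.

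Snap25, the neuronal SNAP protein, was at 0.25, 1.29 and 0.43 CPM in NP+ cells against 0.84, 3.66 and 1.65 CPM in NP- cells. It was lower in the NP+ library of each tumour, while the groups overlapped. The log2 fold change was -1.63 ± 0.92 (unadjusted p 0.113, adjusted p 0.302, edgeR), and with the tumour in the model the unadjusted p was 0.047. The log2 fold change was -2.54 without the NP+ library of MET-107, -1.07 without that of MET-106 and -0.90 without the NP- library of MET-107. Per kb its levels were 0.72 to 1.90 times the count density of 1405 olfactory receptor genes in the same libraries. These genes are known mainly from the nose, and their summed density served as a rough floor. That density was 0.033, 0.10 and 0.058 CPM per kb in NP+ cells and 0.087, 0.422 and 0.337 CPM per kb in NP- cells, so it too was lower in the NP+ library of each tumour. Vamp1 was at 6.89 to 20.9 times that density per kb in NP+ cells and 2.49 to 7.25 times in NP- cells. For Napb these were 12.3 to 45.7 times and 2.15 to 14.3 times.

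Syntaxin genes gave 8 positive and 2 negative log2 fold changes, of which Stx4a, Stx12 and Stx16 turned negative under upper-quartile and total-count scaling, and 3 of 10 had an unadjusted p under 0.05, all higher in NP+ cells (30%, beside 8.01% of all tested genes and 17.8% of those with at least 5 CPM). Besides Stx6 and Stx2 the third was Stx7, a syntaxin of late endosomes, at 149, 146 and 163 CPM in NP+ cells against 128, 93.6 and 104 CPM in NP- cells. No NP- library reached the NP+ values. The log2 fold change was 0.49 ± 0.18 (unadjusted p 0.0226, adjusted p 0.166, edgeR), and 0.68 without the NP- library of MET-106 (adjusted p 0.0482). With the tumour in the model it was 0.51 ± 0.21 (unadjusted p 0.0407, adjusted p 0.205, edgeR). Its unadjusted p was above 0.05 under upper-quartile scaling (log2 fold change 0.25, p 0.168, edgeR), total-count scaling (0.20, p 0.243) and the 5 CPM filter (0.23, p 0.172). It was also above 0.05 without the NP- library of MET-107 (0.41, p 0.0609) and without the NP+ library of MET-106 (0.61, p 0.0732) or MET-108 (0.54, p 0.110).

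Stx5a, the mouse symbol of the Golgi syntaxin 5, was at 176, 147 and 159 CPM in NP+ cells against 129, 127 and 121 CPM in NP- cells. Stx4a, the plasma membrane syntaxin 4 that pairs with Snap23, was at 64.3, 56.7 and 56.9 CPM against 46.7, 47.8 and 55.8 CPM. Neither overlapped between the groups, with log2 fold changes of 0.35 ± 0.16 for Stx5a and 0.24 ± 0.18 for Stx4a, although for Stx4a the fractions of MET-108 were nearly equal.

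The most abundant syntaxin per kb was Stx12, of early and recycling endosomes, with 72.6 ± 8.0 CPM per kb in NP+ cells and 64.7 ± 6.5 CPM per kb in NP- cells (SD, n = 3 each). Its CPM were 243, 202 and 249 in NP+ cells and 196, 193 and 230 in NP- cells. The groups overlapped (log2 fold change 0.17 ± 0.17), and under total-count, upper-quartile scaling and the 5 CPM filter its sign turned.

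The shares within the syntaxin class differed most for Stx6, which made up 10.5 ± 0.9% of the summed syntaxin level per kb in NP+ cells and 4.43 ± 2.57% in NP- cells. Stx2 made up 5.27 ± 0.12% and 3.37 ± 1.09% (SD, n = 3 each). Among all 34 genes ranked by mean CPM per kb, Stx6 was in place 10 in NP+ cells and in place 20 in NP- cells, and Exoc5 in place 16 and in place 22.

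The remaining syntaxins overlapped between the groups. Stx3, a plasma membrane syntaxin of apical surfaces in epithelia, averaged 29.6 ± 2.7 CPM in NP+ cells and 20.6 ± 8.9 CPM in NP- cells (log2 fold change 0.52 ± 0.32). Stx8 of late endosomes (-0.02 ± 0.22), Stx16 of the trans-Golgi network (0.17 ± 0.24) and Stx18 of the endoplasmic reticulum (-0.06 ± 0.24) lay near 0. Exons of Gm42858 and Nsg1 on the opposite strand cover 32.3% of the Stx18 gene length, and since the library kit marks no strand, reads there cannot be assigned to one of them.

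Stxbp3 (Munc18c, the Sec1/Munc18 protein that binds syntaxin 4) was at 66.8, 53.6 and 64.6 CPM in NP+ cells against 58.3, 44.5 and 58.5 CPM in NP- cells. It was higher in the NP+ library of each tumour, with gaps smaller than the spread among tumours (log2 fold change 0.20 ± 0.20, adjusted p 0.539, edgeR).

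Of the disassembly genes, Napa encodes alpha-SNAP, the adaptor through which the ATPase NSF grips SNARE bundles. Napa was at 235, 218 and 237 CPM in NP+ cells against 182, 158 and 194 CPM in NP- cells. The groups did not overlap, and the gap was alike in all 3 tumours, with log2 ratios of 0.37, 0.46 and 0.29. The log2 fold change was 0.37 ± 0.16 (unadjusted p 0.0493, adjusted p 0.213, edgeR), and with the tumour in the model the unadjusted p was 0.0865. It was 0.498 under upper-quartile scaling, 0.624 under total-count scaling and 0.485 with the 5 CPM filter, where the log2 fold change was 0.12, 0.072 and 0.10. Without the NP- library of MET-107 or any one NP+ library the unadjusted p was 0.0687 to 0.142 (edgeR). Napa carried 64.4% of the level per kb of its class in NP+ cells and 62.3% in NP- cells.

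Nsf was at 217, 175 and 239 CPM in NP+ cells against 151, 131 and 199 CPM in NP- cells. It was higher within each tumour, but the NP- library of MET-108 lay above the NP+ library of MET-107 (log2 fold change 0.39 ± 0.21). Napg, which encodes gamma-SNAP, averaged 37.2 ± 4.8 CPM in NP+ cells and 41.4 ± 9.3 CPM in NP- cells. Napb, encoding beta-SNAP, which is known mainly from brain, was low, at 8.65 ± 3.11 CPM in NP+ cells and 9.06 ± 4.08 CPM in NP- cells (SD, n = 3 each).

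The 8 exocyst genes had 6 positive and 2 negative log2 fold changes (5 negative under upper-quartile and total-count scaling, with Exoc2, Exoc3 and Exoc4 turned), with Exoc5 as the only one at an unadjusted p under 0.05. That 1 gene is 12.5% of the class, beside 8.01% of all tested genes and 17.8% of those with at least 5 CPM. Besides Exoc5 the groups were separate only for Exoc7. Of all tested genes 13.3% were higher without overlap, and of those with at least 5 CPM 27.8%. Exoc7 encodes Exo70, a subunit that binds phosphoinositides of the plasma membrane. Exoc7 was at 78.3, 62.3 and 68.9 CPM in NP+ cells against 52.5, 57.0 and 50.6 CPM in NP- cells. The smallest gap was in MET-107 (log2 fold change 0.39 ± 0.18, unadjusted p 0.0569, adjusted p 0.225, edgeR). Exons of Gm26730 on the opposite strand cover 6.71% of its gene length.

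Exoc6, the subunit that binds Rab11 (Sec15), had the highest exocyst level per kb, at 25.1 ± 5.2 CPM per kb in NP+ cells and 26.8 ± 2.0 CPM per kb in NP- cells (SD, n = 3 each). It was at 75.8, 52.1 and 77.8 CPM in NP+ cells against 76.3, 66.7 and 76.4 CPM in NP- cells. The libraries of MET-107 were the lowest of each group, and the other 4 libraries lay close together (log2 fold change -0.09 ± 0.21).

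Since the exocyst works as one complex of 8 subunits, the makeup of its transcripts is given per kb. Exoc5 made up 17.8 ± 0.7% of the summed exocyst level in NP+ cells and 8.72 ± 4.97% in NP- cells. In single NP- libraries that share was 12.7%, 10.3% and 3.15% for MET-106, MET-107 and MET-108. Exoc6 made up 22.3 ± 2.2% in NP+ cells and 28.9 ± 1.6% in NP- cells. Exoc2, a subunit bound by Ral GTPases (Sec5), made up 20.1 ± 0.5% and 21.2 ± 3.6%, and Exoc8, the other Ral-binding subunit, 1.85 ± 0.51% and 3.12 ± 1.54% (SD, n = 3 each). The shares of one library sum to the whole, so a lower share of one subunit goes with a higher share of others and is not a lower level.

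**Figure D4:**
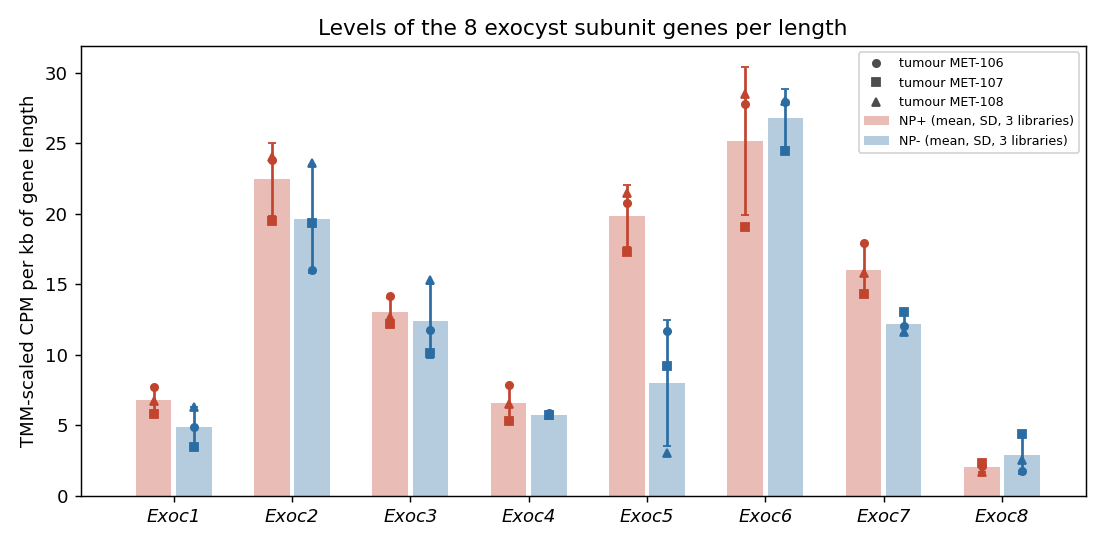
TMM-scaled CPM per kb of gene length of the 8 exocyst genes, with bars for the mean of the 3 NP+ (left) and 3 NP- (right) libraries, lines for the SD and a point per tumour. Exoc5 has the widest gap, at 19.8 CPM per kb in NP+ cells and 7.98 CPM per kb in NP- cells, while Exoc6, Exoc2 and Exoc3 overlap between the groups.

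The other exocyst genes overlapped between the groups. Exoc1, the subunit also known as Sec3, averaged 81.3 ± 11.7 CPM in NP+ cells and 58.8 ± 17.3 CPM in NP- cells and was higher within each tumour (log2 fold change 0.47 ± 0.25). Exoc2 (0.19 ± 0.20), Exoc3 (0.07 ± 0.21) and Exoc4 (0.19 ± 0.19) lay near 0. Exoc8 was low, at 9.32 ± 1.52 CPM in NP+ cells and 13.2 ± 6.1 CPM in NP- cells, with its highest value in the NP- library of MET-107.

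Further genes of the pathway were counted from 5 lists of other SNAREs, SNARE regulators, exocyst paralogs and regulators, other tethers and Weibel-Palade body genes. Together 19 of them were higher and 10 lower in NP+ cells at an unadjusted p under 0.05, none at an adjusted p under 0.05 in edgeR's quasi-likelihood test. Among all tested genes 8.01% were higher and 15.4% lower at the unadjusted threshold, and among those with at least 5 CPM 17.8% and 4.38%. Beside these, the shares of higher genes in the lists of other SNAREs (11.8%), SNARE regulators (16.7%), other tethers (15.2%) and Weibel-Palade body genes (17.6%) were at or below the share among genes with at least 5 CPM. Of 17 other SNARE genes 2 were higher (Snap47 and Sec22b) and 0 lower, with a median log2 fold change of 0.26. The lowest p was that of Snap47, a SNAP-related SNARE, at 64.6, 61.0 and 66.8 CPM in NP+ cells against 55.0, 37.6 and 28.5 CPM in NP- cells (log2 fold change 0.67 ± 0.25, adjusted p 0.172, edgeR). Sec22b, an R-SNARE of the early secretory pathway, followed with 0.39 ± 0.17, and Gosr2 of the Golgi with 0.47 ± 0.23.

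Of 15 exocyst paralogs and regulators 5 were higher (Rala, Ralb, Tnfaip2, Rab10 and Exoc3l4) and 0 lower (33.3%), with a median log2 fold change of 0.37. Rala, a Ral GTPase that binds the exocyst, was at 47.3, 73.9 and 52.2 CPM in NP+ cells against 29.5, 20.1 and 19.1 CPM in NP- cells. The groups did not overlap (log2 fold change 1.34 ± 0.26, unadjusted p 0.000742, adjusted p 0.0928, edgeR). Its relative Ralb was at 648, 566 and 601 CPM against 336, 340 and 484 CPM (0.65 ± 0.20), and Tnfaip2, a relative of the exocyst subunit Sec6, at 55.9, 69.1 and 71.7 CPM against 46.3, 44.0 and 37.8 CPM (0.62 ± 0.19).

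Among SNARE regulators, 24 of 26 genes were tested, of which 4 were higher and 7 lower, with a median of -0.11. Stxbp2, the Munc18 protein of granule release in blood cells, was at 1.78, 3.88 and 3.61 CPM in NP+ cells against 19.0, 6.90 and 9.45 CPM in NP- cells (log2 fold change -1.93 ± 0.51, edgeR). Syt1, a calcium sensor of neuronal release, was at 0.055, 0.98 and 0.70 CPM in NP+ cells against 1.25, 16.3 and 7.06 CPM in NP- cells (-3.80 ± 1.12). The leukocyte markers, given above, stood lower in NP+ cells too, as did neural markers, of which 3 of 7 tested had an unadjusted p under 0.05 (summed 5.6 to 10.2 CPM in NP+ cells against 13.8 to 21.7 CPM in NP- cells, 1 of 8 genes at 0 in 1 NP+ and 2 NP- libraries). Their part in these values was not tested.

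Of 33 other tether genes 5 were higher (Cog2, Cog3, Cog4, Golga2 and Trappc3) and 1 lower (Trappc10), with a median of 0.24. Lowest in p were 3 subunits of the COG tether of the Golgi. Cog3 was at 50.8, 50.3 and 59.6 CPM in NP+ cells against 32.3, 31.4 and 15.3 CPM in NP- cells (log2 fold change 1.02 ± 0.29, adjusted p 0.134, edgeR). The NP- library of MET-108 was again the lowest. Cog2 (0.62 ± 0.20) and Cog4 (0.45 ± 0.17) had NP+ libraries above every NP- library as well.

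Of 17 Weibel-Palade body genes 3 were higher (Selp, Angpt2 and Rap1a) and 2 lower (Sytl2 and Myrip), with a median of 0.08. Selp, the adhesion receptor P-selectin stored in these granules, was at 2356, 1496 and 1053 CPM in NP+ cells against 614, 439 and 236 CPM in NP- cells. Every NP+ library was above every NP- library (log2 fold change 1.93 ± 0.39, unadjusted p 0.000948, adjusted p 0.0992, edgeR), and with the tumour in the model the adjusted p was 0.0319. Rap1a, a small GTPase tied to granule release, was at 167, 190 and 176 CPM against 138, 111 and 79.5 CPM (0.69 ± 0.22). Sytl2, a Rab27 effector, was lower, at 1.67, 1.40 and 1.68 CPM in NP+ cells against 4.47, 5.11 and 8.34 CPM in NP- cells (-1.91 ± 0.49).

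**Figure D5:**
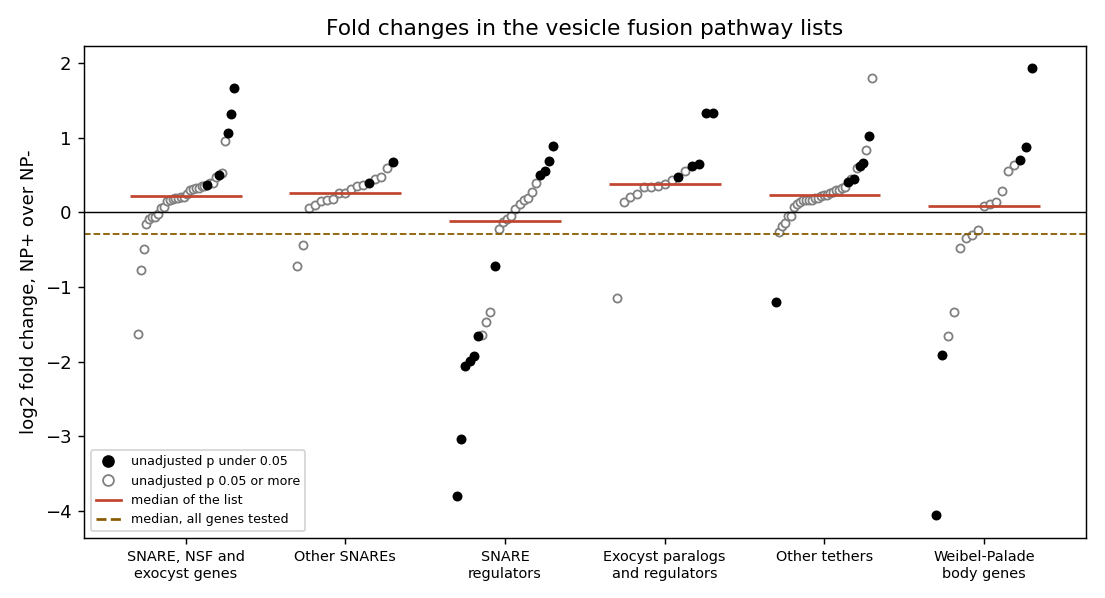
Log2 fold changes (NP+ over NP-) of the 34 genes and of 5 further lists of the pathway, 1 point per tested gene in order of size within a list; filled points have an unadjusted p under 0.05 and red lines mark list medians. Exocyst paralogs and regulators have the highest median (0.37). Weibel-Palade body genes spread widest, from -4.06 to 1.93, and SNARE regulators have 7 genes lower and 4 higher at that threshold.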

How the data were processed

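The deposited counts are 1 whole number per gene and library, made with Trimmomatic, STAR 2.5.2b and Subread 1.5.2 (featureCounts) on GRCm38 (mm10), per the submitters' processing notes. The sources used here do not give the annotation release or the strand and multi-mapping settings. Libraries were made with SMART-Seq v4, which marks neither strand nor molecules, and read as 150 bp pairs, per the labels. The authors' deposited table adds a signal (counts divided by a size factor), log2 fold changes of NP- over NP+, turned round here, and p-values with adjusted p-values; DESeq2 is named in the notes.

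Counts were tested with edgeR 4.0.16 (R 4.3.3): quasi-likelihood test, TMM scaling, filterByExpr by group (minimum count 10), no block, two-sided p adjusted by Benjamini-Hochberg over 23989 genes, threshold 0.05. The SE is the log2 fold change divided by the square root of F. CPM per kb uses the gene length in the deposited files. Steps were tested on simulated data. Alternatives were the tumour block, DESeq2 1.42.0, limma-voom 3.58.1, other scalings and filters, an adjusted p under 0.1, and each library or tumour left out; reads recovered from the deposited signal (100% of 156426 values whole within 0.01 reads) were added after seeing the data.

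Members and lists were chosen with earlier results of these data known. Values per library are given for members with an unadjusted p under 0.05 or groups that did not overlap, and for the highest member per kb of each class; other lists name up to 3 genes with the lowest p and a mean of at least 5 CPM in 1 group. Genes named outside that rule were chosen after their values were seen. For a few genes under this rule, values are not reported here. Tumour numbers pair the libraries, since both fractions came from the same tumour, per the labels; same-tumour deviations correlated at 0.28, 0.21 and 0.02. Total counts were compared by an exact two-sided permutation test (p 0.2, smallest possible 0.1).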

Additional observations from a re-analysis of the deposited data

How the results depend on the processing

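Of the calls, 0 members at an adjusted p under 0.05 became 3 higher with DESeq2 (Stx6, Exoc5 and Stx2) and 3 without the low-count filter, and 0 to 4 as libraries or tumours were left out: 4 without the NP- library of MET-106 (Stx2, Stx6, Stx7 and Exoc5) and 1 without that of MET-108 (Stx6). An adjusted p under 0.1 called 0. At an unadjusted p under 0.05 the 5 higher members became 3 under upper-quartile scaling, 3 under total-count scaling and 3 with the 5 CPM filter. Of all genes tested, 3.27%, 2.54% and 6.44% were higher there. In left-out fits the 5 became 2 to 11 (11 without the NP- library of MET-108, 9 without that of MET-106, 2 without both libraries of MET-107). In the fits named, 10%, 12.3% and 4.81% of all genes tested were higher. The 0 lower members became 1 with the tumour as a replicate block (Snap25). They became 1, Vamp1, under total-count scaling (21% of all genes tested) and with the 5 CPM filter (8.75%). In left-out fits they became 0 to 1 (Vamp1 without the NP- library of MET-106, beside 22.4% of all genes). The block turned the sign of 1 member, Stx8, and left all members above an adjusted p of 0.05. Over all genes, the 3 higher and 4 lower became 966 and 2365 with DESeq2, 12 higher with limma-voom, 525 and 686 without the filter, 18 and 87 with the 5 CPM filter, 13 lower with the block, 18 lower under upper-quartile scaling, 9 lower under total-count scaling, and 0 to 968 higher and 0 to 1352 lower in left-out fits, highest without the NP- library of MET-106. Members higher in 3 of 3 tumours were 4 under total-count and 6 under upper-quartile scaling, against 21 under TMM, and 9 and 5 were lower. None of the sign changes that follow passed an unadjusted p of 0.05. Log2 fold changes turned to -0.039 for Vamp5, -0.091 for Vamp8, -0.21 for Snap29, -0.010 for Stx4a, -0.089 for Stx12, -0.074 for Stx16, -0.053 for Stxbp3, -0.070 for Exoc2, -0.19 for Exoc3 and -0.064 for Exoc4 under upper-quartile scaling. They were -0.092 for Vamp5, -0.14 for Vamp8, -0.24 for Snap29, -0.056 for Stx4a, -0.13 for Stx12, -0.12 for Stx16, -0.099 for Stxbp3, -0.11 for Exoc2, -0.23 for Exoc3 and -0.12 for Exoc4 under total-count scaling. With the 5 CPM filter they were -0.063 for Vamp5, -0.11 for Vamp8, -0.21 for Snap29, -0.029 for Stx4a, -0.11 for Stx12, -0.090 for Stx16, -0.071 for Stxbp3, -0.085 for Exoc2, -0.20 for Exoc3 and -0.087 for Exoc4. Without the low-count filter they were 0.17 for Stx8, 0.15 for Stx18, 0.13 for Napb, 0.057 for Napg and 0.095 for Exoc6. DESeq2 gave 0.035 for Stx8 and 0.0020 for Stx18, RLE scaling 0.035 for Stx8 and 0.0020 for Stx18 and the block 0.0060 for Stx8. Left-out fits spanned -0.0097 to 0.46 for Vamp8, -0.16 to 0.49 for Snap29, -0.16 to 0.26 for Stx8, -0.013 to 0.49 for Stx16, -0.15 to 0.23 for Stx18, -0.32 to 0.32 for Napb, -0.24 to 0.057 for Napg, -0.047 to 0.34 for Exoc3 and -0.14 to 0.11 for Exoc6. The cause of these changes was not tested. Stx6, Exoc5, Stx2 and Stx7 stayed positive in all settings run. So did other genes of the set, among them Vamp2, Vamp3, Vamp4, Vamp7, Ykt6, Snap23, Stx3, Stx5a, Nsf, Napa and Exoc1. Reads recovered from the deposited signal, chosen after seeing the data, changed no call or sign. Depth limits Snap25, which had 9 to 88 reads per library.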
